A study of Mus musculus with 10 samples.

Results

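The NRF2, heme oxygenase and NQO1 response was followed in the ovary through 8 of the 55487 mouse genes in the table: Nfe2l2, Keap1, Bach1, Maff, Srxn1, Hmox1, Nqo1 and Blvrb. They were chosen by name for their known roles in the NRF2 pathway and in heme breakdown, and all 8 passed the filter on low counts. RNA was sequenced from 10 ovaries of mice on a C57BL/6J background, 4 from Control mice aged 8 weeks, 3 from Aged mice and 3 from Aged+CF mice, with a library per ovary. The labels put mice of both older groups at 11 months, and the study's methods give a slightly younger age. Aged+CF mice received 200 μL of CEFFE (cell-free fat extract, the watery fluid left when emulsified fat tissue is spun down) at 3 μg/μL into the tail vein every other day, and Control and Aged mice received saline. All mice, Control included, were given 10 IU of PMSG, a gonadotrophin that stimulates follicle growth, 48 h before the ovaries were taken, so every ovary was a stimulated one. Levels are given in CPM (read counts relative to the TMM-scaled library size) as mean ± SD, with n = 4 for Control and n = 3 for the other groups, and levels of different genes are compared only in FPKM, which divides by gene length.

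NRF2, the product of Nfe2l2, is a transcription factor that the adaptor KEAP1 holds for destruction by a CUL3 ubiquitin ligase. Oxidants and electrophiles modify KEAP1, NRF2 then builds up, pairs with a small Maf protein such as MAFF and binds antioxidant response elements (AREs) in the promoters and enhancers of its target genes, while BACH1 occupies many of the same elements as a repressor and is released by heme. The targets SRXN1, HMOX1, NQO1 and BLVRB repair oxidised peroxiredoxins, break heme open, reduce quinones and reduce biliverdin, respectively. NRF2 is governed largely through the stability of its protein, so the mRNA of Nfe2l2 is not a measure of its activity. In the ovary, steroid synthesis and the rupture and regression of follicles expose cells to oxidants and to heme.

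The promoter of Srxn1, the member that passed the test with age, is shown beside that of Nqo1, the standard NRF2 reporter gene, which did not pass in any comparison. Both are RefSeq promoter windows of GRCm38.p6, from 250 bases before the start of the gene to 50 after it, 5′ to 3′ on the strand of the gene. Capitals mark each match to TGACNNNGC or TGAGNNNGC (2 forms of the ARE core) or to TGAGTCA (the AP-1 element, which small Maf and BACH proteins also bind), on either strand.
Srxn1 (chr2:152105274-152105573, plus strand): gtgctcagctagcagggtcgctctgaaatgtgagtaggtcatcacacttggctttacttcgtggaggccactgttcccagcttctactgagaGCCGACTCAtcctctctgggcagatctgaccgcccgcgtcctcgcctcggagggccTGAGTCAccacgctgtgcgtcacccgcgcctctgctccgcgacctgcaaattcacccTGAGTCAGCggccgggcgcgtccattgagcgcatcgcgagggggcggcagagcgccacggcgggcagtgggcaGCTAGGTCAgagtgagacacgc
Nqo1 (chr8:107403156-107403455, minus strand): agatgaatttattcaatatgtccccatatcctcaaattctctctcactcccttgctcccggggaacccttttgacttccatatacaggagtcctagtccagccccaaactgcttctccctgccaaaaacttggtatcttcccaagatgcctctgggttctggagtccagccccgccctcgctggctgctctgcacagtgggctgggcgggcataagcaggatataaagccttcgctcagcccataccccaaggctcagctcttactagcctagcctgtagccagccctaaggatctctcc
The Srxn1 window held 3 matches to the ARE forms, at positions -158, -45 and 29 counted from the start of the gene, those at -158 and 29 on the other strand. It also held TGAGTCA at -102 and at -45, the latter inside the ARE match. Of 32851 promoter windows of this length, 27.8% held an ARE form, 4.68% held at least 2, 5.20% held TGAGTCA and 0.222% held it at least 2 times. The Nqo1 window held none of them, nor did those of Keap1 and Bach1. Nfe2l2 had TGACTCCGC at -240, Blvrb GCCTACTCA at -69 on the other strand, and Maff TGACTCTGC at -112 and TGAGAAGGC at -87. In all, 7 of the 8 genes had an entry among these promoters (10 windows), and Hmox1 had none. Blvrb and Maff each had further windows, which held no match. A match is a string of letters, and binding was not measured. Sequence outside these windows was not searched, so a window without a match does not mean that the gene lacks an ARE.

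Of the 8 genes, Srxn1 alone rose in Aged vs Control at a fold change of at least 1.5, both at an unadjusted and at an adjusted p under 0.05. Among all 18956 genes tested, 11.1% passed at the adjusted p in this comparison in either direction, and at the unadjusted p 8.79% were higher and 9.44% lower. Between Aged+CF and Aged, 0 of the 8 genes passed both limits at either p with edgeR or with DESeq2, where the unadjusted p alone was under 0.05 for 2 genes in edgeR (Nfe2l2 and Bach1) and for 1 in DESeq2 (Nfe2l2). The share of all genes in that comparison was 0.00528% at the adjusted p, and 3.91% higher and 4.05% lower at the unadjusted p. Between Aged+CF and Control, Srxn1 was higher and Hmox1 lower at the unadjusted p, and 0 genes passed at the adjusted p with edgeR or DESeq2. The background there was 0.179% at the adjusted p, with 3.33% of all genes higher and 4.36% lower at the unadjusted p. Without the fold limit, an unadjusted p under 0.05 was reached by 31.6% of all genes with age, 16.3% for Aged+CF vs Aged and 14.3% for Aged+CF vs Control, and by 2 of the 8 genes each time. The 3 Aged ovaries entered both of the first comparisons. The 8 genes had median log2 fold changes of -0.05 with age, -0.28 for Aged+CF vs Aged and -0.04 for Aged+CF vs Control, beside -0.00, -0.02 and -0.03 over all genes tested.

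**Figure D1:**
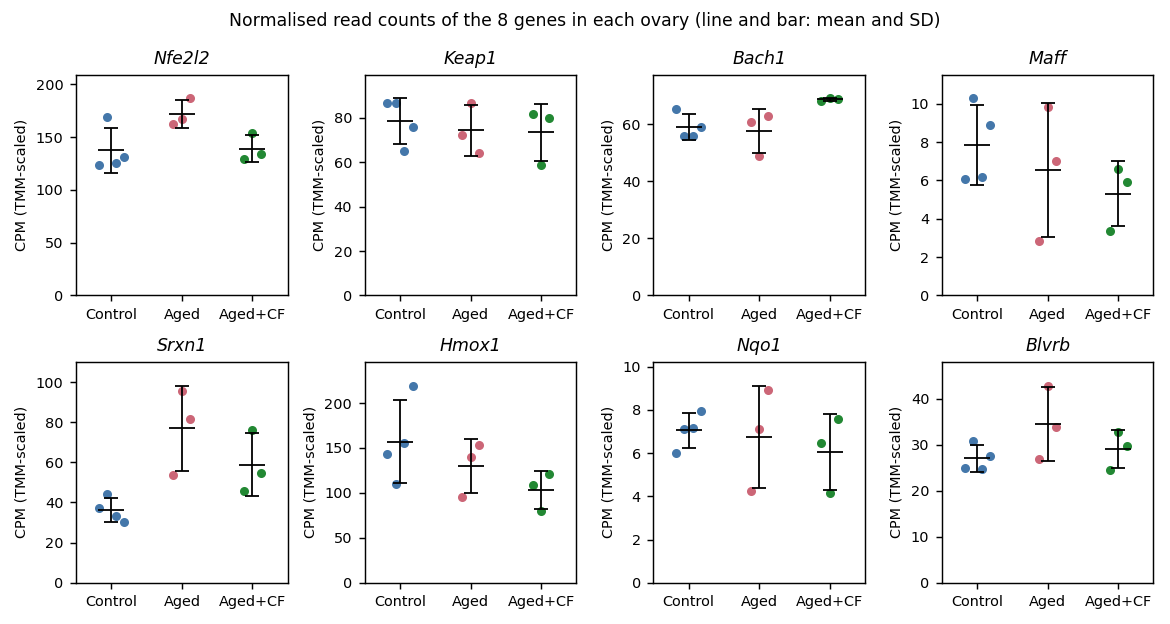
Normalised read counts (CPM, TMM-scaled, linear axis from 0) of each gene, a point per ovary, with the group mean as a line and the SD as a bar. The 3 Aged ovaries sit above all 4 Control ovaries for Srxn1, while the groups overlap for Keap1, Maff, Hmox1, Nqo1 and Blvrb.

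**Figure D2:**
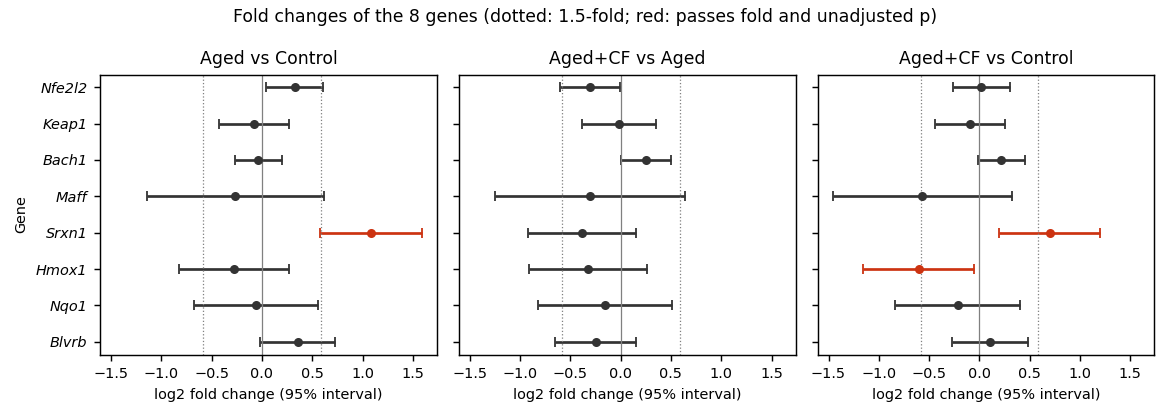
Log2 fold changes with 95% intervals from the edgeR fit for the 8 genes in the 3 comparisons. Red marks genes past both the fold limit (dotted) and the unadjusted p, which are Srxn1 in Aged vs Control and Srxn1 and Hmox1 in Aged+CF vs Control.

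The ovaries were sequenced to 15761789 to 21318254 counted reads, with similar medians in the 3 groups. The replicate numbers used here are those in brackets in the sample titles. The library of Aged 34 stood apart. Its summed oocyte markers were 15.2 CPM against 111 and 131 in the other Aged ovaries, and its plasma cell markers 2646 CPM against 29.6 to 242 in the other 9 ovaries. As a check of the tissue, all 12 oocyte, 8 granulosa and 7 luteal and theca markers passed the filter on low counts.

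Srxn1 (ENSMUSG00000032802, chr2:152105516-152111376, plus strand, GRCm38) encodes sulfiredoxin, which restores peroxiredoxins that have been overoxidised. Its level was 37.4, 44.2, 33.4 and 30.3 CPM in the 4 Control ovaries, 53.6, 95.7 and 81.4 CPM in the 3 Aged ovaries, and 45.7, 76.3 and 54.7 CPM in the 3 Aged+CF ovaries. All 3 Aged ovaries lay above all 4 Control ovaries, and so did all 3 Aged+CF ovaries, with the lowest Aged+CF ovary just above the highest Control one, while Aged and Aged+CF overlapped. Control averaged 36.3 ± 6.01, Aged 76.9 ± 21.4 and Aged+CF 58.9 ± 15.7 CPM. Srxn1 rose 2.12-fold in Aged vs Control (log2 fold change 1.08, SE 0.23, 95% interval 0.58 to 1.59, adjusted p = 0.0148, edgeR quasi-likelihood test). Groups that did not overlap were found for 27.5% of all genes in this comparison. Without Aged 34, the ovary that stood apart, the log2 fold change was 1.08 with an adjusted p of 0.0180. In Aged+CF vs Aged the log2 fold change was -0.38 with an interval of -0.93 to 0.16, which runs from a fall past the fold limit to a small rise. Without Aged 31 it was -0.60 and without Aged+CF 32 it was -0.61, and each of these passed at the unadjusted p (0.0276 and 0.0357) and not at the adjusted p (0.238 and 0.334, edgeR). Against Control, Srxn1 in Aged+CF was 1.62-fold higher (log2 fold change 0.70, interval 0.19 to 1.20, unadjusted p = 0.0116, adjusted p = 0.221, edgeR), in a comparison in which 21.9% of all genes had no overlap between the groups. That call was lost without Aged+CF 32, the Aged+CF ovary with the highest level (log2 fold change 0.47, unadjusted p = 0.0705, edgeR).

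Nfe2l2 (ENSMUSG00000015839, chr2:75675513-75704641, minus strand) encodes NRF2 itself. It stood at 123, 170, 126 and 131 CPM in Control, at 162, 167 and 187 CPM in Aged, and at 129, 154 and 134 CPM in Aged+CF. Control 32 lay inside the Aged range and the other 3 Control ovaries below it, and the Aged+CF ovaries lay below all 3 Aged ovaries and among the Control ones. The means were 138 ± 21.7, 172 ± 13.0 and 139 ± 13.1. The log2 fold change was 0.32 (interval 0.04 to 0.61) with age and -0.31 (-0.61 to -0.01) for Aged+CF vs Aged, below the fold limit both times, with adjusted p of 0.108 and 0.301 (edgeR). No overlap between groups was seen for 18.6% of all genes in Aged+CF vs Aged, and in FPKM, which uses no TMM scaling, the Aged and Aged+CF ovaries did overlap for Nfe2l2. Without Control 32 the adjusted p in Aged vs Control was 0.0384 (edgeR), at a log2 fold change of 0.44 that is still under the fold limit. Without Control 31, 33 or 34 or Aged 34, the unadjusted p with age was not under 0.05 (edgeR). The same held for Aged+CF vs Aged without Control 33 or 34, Aged 33 or 34, or Aged+CF 30 or 34. With library totals in place of TMM, the values were 0.20 and -0.22 with unadjusted p of 0.154 and 0.148 (edgeR).

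Keap1 (ENSMUSG00000003308, chr9:21229730-21239361, minus strand), whose product captures NRF2, was level across the groups within its spread. Control had 78.4 ± 10.3 CPM, Aged 74.2 ± 11.5 and Aged+CF 73.4 ± 12.7, and all 10 ovaries lay between 58.8 and 86.7 CPM. The intervals of the log2 fold change were -0.43 to 0.27 with age, -0.39 to 0.36 for Aged+CF vs Aged and -0.44 to 0.25 for Aged+CF vs Control, which leave out changes of 1.5-fold in either direction. Strandedness of the libraries is not given in the sources used here, so reads from the antisense gene Gm16754, which had at most 64 counts in any ovary, could not be told from reads of Keap1.

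Bach1 (ENSMUSG00000025612, chr16:87698945-87733346, plus strand) encodes the heme-binding repressor of ARE genes. Its level was 65.5, 56.0, 55.8 and 59.1 CPM in Control, 60.9, 48.9 and 63.1 CPM in Aged, and 68.3, 69.2 and 68.8 CPM in Aged+CF. The Aged+CF ovaries were nearly equal and lay above all ovaries of the other groups, by CPM and by FPKM, while Control and Aged overlapped. The difference was small: 0.25 on the log2 scale in Aged+CF vs Aged (interval 0.01 to 0.50, unadjusted p = 0.0455, adjusted p = 0.298) and 0.22 in Aged+CF vs Control (interval -0.01 to 0.45, adjusted p = 0.372, edgeR), neither past the fold limit. Without Aged 33, the lowest ovary, the value in Aged+CF vs Aged was 0.15 with an unadjusted p of 0.148 (edgeR). Of the fits that left out an ovary, only those without Control 31 or Aged 34 kept an unadjusted p under 0.05 there. It was also not kept with no filter, DESeq2, only the compared groups or the replicate block.

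Maff (ENSMUSG00000042622, chr15:79346621-79359076, plus strand) encodes a small Maf protein, which has no activation domain of its own and pairs with NRF2 or BACH1. It was the most variable of the 8 genes, with 3.59 times as much in the highest ovary (Control 32) as in the lowest (Aged 31). Its levels were 6.07, 10.3, 6.19 and 8.91 CPM in Control, 2.86, 9.81 and 7.0 CPM in Aged, and 3.38, 6.61 and 5.91 CPM in Aged+CF. Every pair of groups overlapped. The log2 fold changes were -0.26 (interval -1.15 to 0.62), -0.30 (-1.25 to 0.64) and -0.57 (-1.46 to 0.32) in the 3 comparisons, so the intervals reach past 1.5-fold downwards in all 3 comparisons and upwards in the first and the second.

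Hmox1 (ENSMUSG00000005413, chr8:75093621-75100589, plus strand) encodes the inducible heme oxygenase, which opens heme into biliverdin, iron and carbon monoxide. Its levels were 143, 109, 156 and 220 CPM in Control, 96.0, 139 and 153 CPM in Aged, and 109, 79.9 and 121 CPM in Aged+CF. Control 34 was the highest of all ovaries and Aged+CF 32 the lowest, and every pair of groups overlapped. The means were 157 ± 46.1, 130 ± 29.9 and 103 ± 21.1. Hmox1 was 0.658 times the Control level in Aged+CF (log2 fold change -0.60, interval -1.16 to -0.05, unadjusted p = 0.0353, adjusted p = 0.315, edgeR). Without Control 34 it was -0.40 and without Aged+CF 32 it was -0.45, with unadjusted p of 0.102 and 0.136 (edgeR), and the call was also lost without Control 33 (-0.61), Aged 33 (-0.58), Aged 34 (-0.58) or Aged+CF 30 (-0.62). With age the log2 fold change was -0.28 (interval -0.83 to 0.27), and for Aged+CF vs Aged it was -0.33 (-0.91 to 0.26). Since these are whole ovaries, fewer cells that express a gene and less RNA per cell cannot be told apart, for Hmox1 or for any gene given here.

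Nqo1 (ENSMUSG00000003849, chr8:107388225-107403206, minus strand) encodes the quinone reductase whose induction is widely used as a readout of NRF2. It was at 6.01, 7.11, 7.15 and 7.95 CPM in Control, 4.24, 7.13 and 8.93 CPM in Aged, and 6.48, 4.14 and 7.59 CPM in Aged+CF. The Aged ovaries spread on both sides of the Control ones, and the groups overlapped in every comparison. The log2 fold change was -0.06 (interval -0.68 to 0.56) with age, -0.15 (-0.82 to 0.51) for Aged+CF vs Aged and -0.22 (-0.84 to 0.41) for Aged+CF vs Control. The upper bound of 0.56 is below the fold limit for a rise with age, and the lower bounds do not leave out a fall past it.

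Blvrb (ENSMUSG00000040466, chr7:27447978-27466144, plus strand) encodes biliverdin reductase B, which reduces biliverdin and flavins. It was at 24.9, 30.9, 24.7 and 27.7 CPM in Control, 26.9, 42.9 and 33.9 CPM in Aged, and 24.5, 32.8 and 29.8 CPM in Aged+CF. Aged 33 and Aged 34 lay above every Control ovary and Aged 31 did not, so the groups overlapped. The log2 fold change was 0.35 (interval -0.02 to 0.73, adjusted p = 0.182) with age, -0.25 (-0.65 to 0.15, adjusted p = 0.511) for Aged+CF vs Aged and 0.10 (-0.27 to 0.48, adjusted p = 0.821, edgeR) in Aged+CF vs Control.

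Per gene length, Hmox1 was the most abundant of the 8 genes, with a mean of 56.7 FPKM over the 10 ovaries, followed by Nfe2l2 (37.7 FPKM), Srxn1 (15.0), Bach1 (8.83), Keap1 (8.15), Blvrb (6.94), Nqo1 (4.30) and Maff (1.48). The ranges of Hmox1 and Nfe2l2 over the ovaries overlapped, as did those of Srxn1 and Bach1, Bach1 and Keap1, and Keap1 and Blvrb. All 10 ovaries had more Nfe2l2 than any had Srxn1, and Maff was below every other member in every ovary. Hmox1 made up 81.8% to 93.7% of the summed FPKM of Hmox1 and the constitutive Hmox2 over the 10 ovaries, averaging 90.4% ± 2.76 in Control, 85.4% ± 4.82 in Aged and, for the Aged+CF ovaries, 86.3% ± 2.32. Nfe2l2 made up 73.3% to 83.6% of the CNC factors (with Nfe2l1, Nfe2l3 and Nfe2), and Bach1 94.3% to 98.9% of Bach1 and Bach2. Blvrb was near parity with Blvra, at 46.2% to 54.1% of their sum. Maff was the least abundant small Maf gene, at 2.63% to 8.83% of the sum with Mafg and Mafk, and Mafg (18.9 ± 1.63, 17.2 ± 3.57 and 18.2 ± 0.739 FPKM in the Control, Aged and Aged+CF groups) the most abundant. Mafg shares sequence with Sirt7 on its own strand, and Mafk with Tmem184a and Hmox2 with Cdip1 on the opposite strand, so reads of these relatives may be split with their neighbours.

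**Figure D3:**
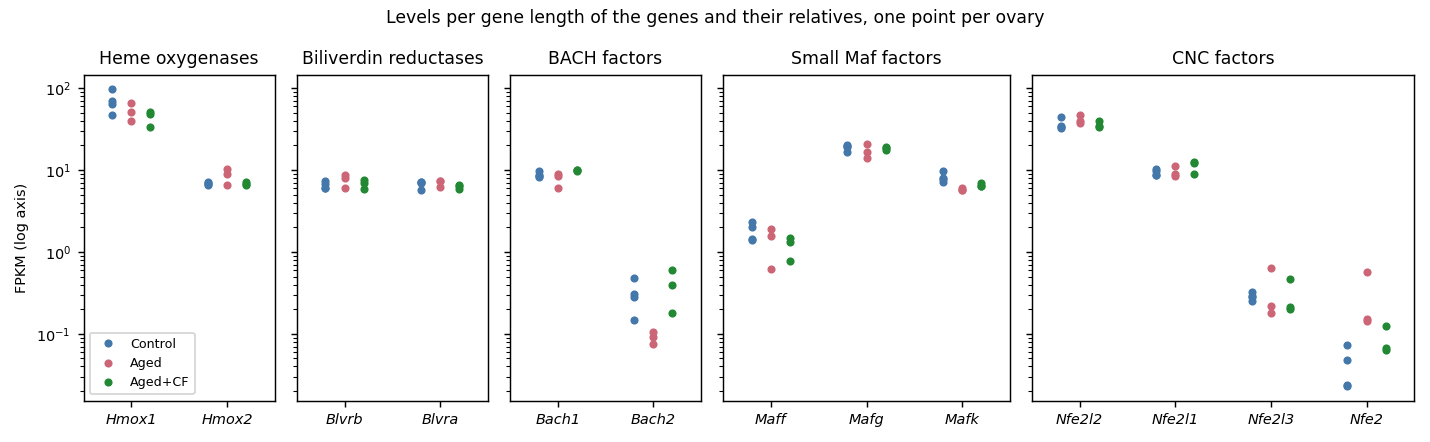
Levels in FPKM (log axis) of the members and their relatives, a point per ovary and group. Hmox1 lies above Hmox2, Nfe2l2 above the other CNC factors and Bach1 above Bach2 in every ovary, and Maff below Mafg and Mafk.

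The wider pathway was read from 3 lists of other genes. Among 12 genes that control NRF2 protein or are relatives of the CNC, BACH and small Maf members, 1 was higher and 2 were lower in Aged vs Control, and all 3 passed at the adjusted p, beside 11.1% of all genes. Nfe2, the CNC factor of red cell precursors, had 0.373 ± 0.209 CPM in Control, 2.94 ± 2.71 in Aged and, among Aged+CF ovaries, 0.777 ± 0.322. Its log2 fold change in Aged vs Control was 2.96 (adjusted p = 0.0166, edgeR), and Aged 33 alone had 6.07 CPM. With means this low in Control and Aged+CF, the fold changes of Nfe2 rest on few reads. Summed erythroid markers were higher in all 3 Aged ovaries (266 to 641 CPM) than in the Control ovaries (75.9 to 114 CPM) and were highest in Aged 33, and their part in the result for Nfe2 was not tested. Gsk3b, a kinase that marks NRF2 for destruction apart from KEAP1, fell from 120 ± 32.6 CPM in Control to 47.7 ± 3.70 in Aged (log2 fold change -1.33, adjusted p = 0.0159). Bach2, the lymphoid relative of Bach1, fell from 5.74 ± 2.62 to 1.86 ± 0.174 CPM (log2 fold change -1.62, adjusted p = 0.0447, edgeR). Between Aged+CF and Aged the same 3 genes passed at the unadjusted p, Gsk3b and Bach2 higher and Nfe2 lower (log2 fold changes 0.93, 2.03 and -1.90, adjusted p of 0.203, 0.161 and 0.220, edgeR), against the shared Aged ovaries. Of all genes, 3.91% were higher and 4.05% lower in that comparison at the unadjusted p. Nfe2 no longer passed there without Aged 33, Aged+CF 30 or Aged+CF 34, nor Gsk3b without Aged+CF 32. Between Aged+CF and Control 0 of the 12 genes passed with edgeR (1 without Aged 33 or without Aged+CF 32). Before the fold limit, 1 had an unadjusted p under 0.05 (edgeR), beside 14.3% of all genes. Cul3, which ubiquitinates NRF2 with KEAP1, was steady at 104 ± 4.34, 110 ± 3.49 and 111 ± 6.47 CPM. Mafk had 50.9 ± 7.20, 39.5 ± 2.69 and 42.1 ± 2.56 CPM and did not reach the fold limit. Over the 12 genes the median log2 fold change was 0.06 with age, 0.01 for Aged+CF vs Aged and 0.03 for Aged+CF vs Control.

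Among 28 classical NRF2 target genes other than the members, 5 were higher and 0 lower in Aged vs Control at the unadjusted p with edgeR, and 4 of these passed at the adjusted p, beside 8.79% of all genes higher at the unadjusted p and 11.1% in either direction at the adjusted p. At an unadjusted p under 0.05 without the fold limit there were 6 of the 28, beside 31.6% of all genes. Me1, a malic enzyme that makes NADPH, rose from 744 ± 58.2 to 1833 ± 494 CPM (log2 fold change 1.30, adjusted p = 0.00901), and Taldo1, of the pentose phosphate pathway, from 122 ± 1.37 to 240 ± 55.3 CPM (0.98, adjusted p = 0.00527, edgeR). Prdx1, a peroxiredoxin and so a substrate protein of the SRXN1 enzyme, rose from 400 ± 28.8 to 779 ± 307 CPM (0.96, adjusted p = 0.0288), and Fth1, the ferritin heavy chain that stores iron, from 456 ± 45.2 to 817 ± 215 CPM (0.84, adjusted p = 0.0129, edgeR). The fifth, Osgin1, had 22.1 ± 3.86 and 38.2 ± 10.5 CPM (0.79, adjusted p = 0.123, edgeR), and it no longer passed without Control 32, 33 or 34 or without Aged 33 or 34. Genes of this list that were named whatever their values did not pass. Gclc (136 ± 7.20 and 131 ± 46.8 CPM) and Gclm (42.6 ± 10.9 and 51.5 ± 14.7 CPM), the subunits of the enzyme that starts glutathione synthesis, Txnrd1 (147 ± 6.83 and 146 ± 24.7 CPM), a thioredoxin reductase, and Slc7a11 (7.11 ± 0.593 and 6.96 ± 2.96 CPM), the cystine carrier, each had groups that overlapped. The intervals of their log2 fold changes with age were -0.66 to 0.55, -0.22 to 0.77, -0.25 to 0.23 and -0.64 to 0.58. That of Gclm reaches past the fold limit upwards, and those of Gclc and Slc7a11 downwards. Gclm, with 536 to 1224 counts per ovary, overlaps the antisense gene Gm17494, which had up to 442 counts, so reads of the pair could not be told apart. The list's median log2 fold change was 0.26, with 22 of the 28 genes above 0, beside -0.00 over all genes. Fth1 and Prdx1 have processed pseudogene copies that could share reads with them.

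After CEFFE (Aged+CF vs Aged), 3 of the 28 target genes were lower and 0 higher at the unadjusted p with edgeR, beside 4.05% and 3.91% of all genes. At the adjusted p there were 0, and at an unadjusted p under 0.05 without the fold limit 7 of the 28, beside 16.3% of all genes. The genes that passed were Osgin1 (19.1 ± 8.90 CPM in Aged+CF, log2 fold change -1.0), Prdx1 (413 ± 101 CPM, -0.92) and Fth1 (490 ± 35.6 CPM, -0.74), with adjusted p of 0.221, 0.181 and 0.161 (edgeR). Taldo1 (163 ± 22.0 CPM, -0.56, adjusted p = 0.175, edgeR) did not reach the fold limit. All 3 Aged+CF ovaries lay below all 3 Aged ovaries for these 4 genes, while they overlapped for Me1 (1363 ± 442 CPM). In all, 5 of the 28 genes were lower and 1 higher without overlap, beside 18.6% of all genes in either direction. The list's median was -0.22 in this comparison, with 19 of the 28 genes below 0. The number that passed in Aged+CF vs Aged rested on single ovaries: it was 9 without Aged 31, 7 without Aged 34, 5 without Aged+CF 32 and 2 without Aged 33. Osgin1 and Prdx1 no longer passed without Aged 33, where Fth1 and Ftl1 did. Fth1 no longer passed without Aged 34, and the 7 genes then included Abcc1, Aox1 and Slc7a11, which had positive log2 fold changes over all ovaries. Against Control, Me1 and Ftl1 of the 28 were higher in Aged+CF at the unadjusted p (log2 fold changes 0.87 and 1.19, adjusted p of 0.152 and 0.163, edgeR), beside 3.33% of all genes. Without Aged+CF 32, 1 gene of the list passed. The list's median over all ovaries was 0.05. Ftl1, the ferritin light chain, is named because it was 1 of 2 that passed, after its values were seen, and it has copies such as Ftl1-ps1 that may share its reads.

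**Figure D4:**
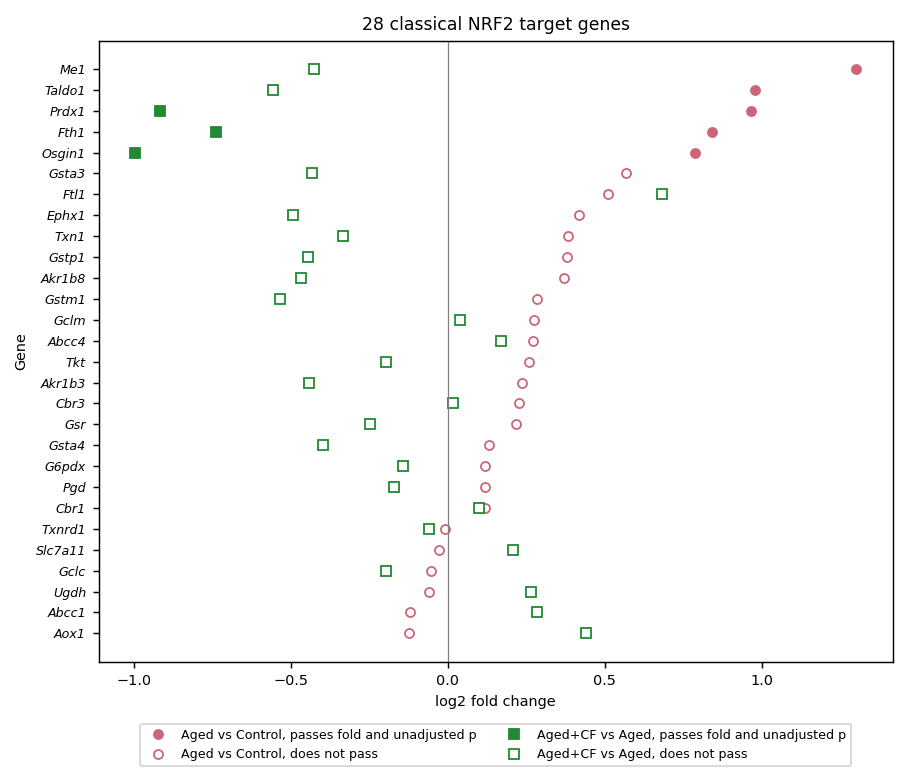
Log2 fold changes of 28 NRF2 target genes other than the members in Aged vs Control (circles) and Aged+CF vs Aged (squares), ordered by the first, where filled symbols pass the fold limit and the unadjusted p. Me1, Taldo1, Prdx1, Fth1 and Osgin1 are filled on the right, and Osgin1, Prdx1 and Fth1 on the left; both comparisons use the same Aged ovaries.

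Of 21 genes of heme synthesis, breakdown and transport other than the members, 1 was lower with age and 1 after CEFFE at the unadjusted p, with 0 at the adjusted p by edgeR, beside 9.44% and 4.05% of all genes lower at the unadjusted p. Without the fold limit 8 and 6 of the 21 had an unadjusted p under 0.05, beside 31.6% and 16.3% of all genes. Flvcr2, a transporter linked to heme and choline, had 13.2 ± 3.97 CPM in Control and 7.84 ± 1.85 in Aged (log2 fold change -0.75, adjusted p = 0.121, edgeR), with overlap. Without Control 34, 0 of the 21 passed in this comparison, while 2 passed without Control 31 or Aged 34, 3 without Aged+CF 34 and 5 without Aged 31. Flvcr2 itself no longer passed in 6 of the 10 fits that left out an ovary, those without Control 32, 33 or 34, Aged 31, Aged 34 or Aged+CF 30. Hp, which encodes the hemoglobin-binding plasma protein haptoglobin, had 9.75, 1.68, 28.5 and 5.57 CPM in Control, 28.8, 30.3 and 21.9 CPM in Aged, and 4.01, 4.94 and 3.00 CPM in Aged+CF. Aged+CF lay below Aged in every ovary (log2 fold change -2.76, adjusted p = 0.177, edgeR), and the Control range overlapped with both groups, while Aged 31 and Aged 33 lay above every Control ovary. The number of the 21 genes past the limits here was 4 without Aged 34, 3 without Aged 31 or Aged+CF 34, and 2 without Control 32 or Aged+CF 30. For Aged+CF vs Control it was 0 with edgeR, with 1 gene at an unadjusted p under 0.05, beside 14.3% of all genes. Without Control 31, 32 or 34, 1 passed. From Control to Aged to Aged+CF, Hmox2 had 26.7 ± 1.18, 36.7 ± 10.3 and 27.4 ± 1.15 CPM and Blvra 18.6 ± 1.90, 21.2 ± 2.93 and 17.7 ± 1.30 CPM, and neither reached the fold limit in any comparison. Over the 21 genes the median was 0.19 with age, -0.22 for Aged+CF vs Aged and -0.07 for Aged+CF vs Control.

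Markers of other cells moved with the groups. Marker genes are counted here at the fold limit and the unadjusted p (edgeR). Of all genes, 8.79% were higher and 9.44% lower in Aged vs Control, and 3.91% and 4.05% in Aged+CF vs Aged. Summed luteal and theca markers were 6367 to 11525 CPM in Control, 15464 to 35571 CPM in Aged and 13690 to 21414 CPM in Aged+CF. Of the 7 genes, 6 were higher in Aged vs Control and 2 lower in Aged+CF vs Aged. The sums were highest in Aged 33, and within Aged+CF in Aged+CF 32, which were also the highest ovaries of their groups for Srxn1. The order was not shared within Control, where Control 31 had the highest sum (11525 CPM) and Control 32 the most Srxn1, nor within all of Aged, where Aged 34 had the lowest sum (15464 CPM) and more Srxn1 than Aged 31. Macrophage markers, of a cell type rich in heme oxygenase, were 622 to 720 CPM in Control, 1014 to 2004 CPM in Aged and 890 to 1047 CPM in Aged+CF. Of the 12, 4 were higher in Aged vs Control and 2 lower in Aged+CF vs Aged. The list's median log2 fold change with age was 0.49, in a comparison that Hmox1 did not pass. Oocyte markers were 462 to 642 CPM in Control, 15.2 to 131 CPM in Aged and 174 to 278 CPM in Aged+CF, with all 12 lower in Aged vs Control and 4 higher in Aged+CF vs Aged. Erythroid markers reached 112 to 264 CPM in Aged+CF. Of the 8, 6 passed the filter on low counts, with 5 higher in Aged vs Control and 4 lower in Aged+CF vs Aged. Granulosa markers were 4318 to 7224, 3223 to 3790 and 2379 to 4145 CPM in the 3 groups, with 4 of 8 lower in Aged vs Control and 1 higher in Aged+CF vs Aged. The part of these cells in the values of Srxn1, Nfe2l2, Hmox1 and the target genes was not tested.

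**Figure D5:**
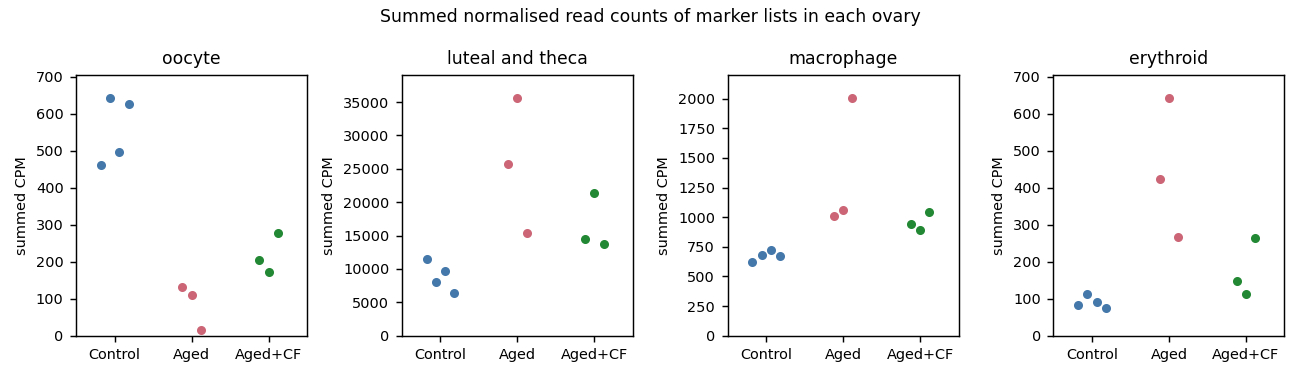
Summed normalised read counts (CPM, axes from 0) of the oocyte, luteal and theca, macrophage and erythroid marker lists, a point per ovary. Aged ovaries have the lowest oocyte sums, and their luteal and theca, macrophage and erythroid sums all lie above those of Control.

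The genes whose pattern over the 10 ovaries was most like that of each member were found by the root mean squared difference of centred log2 CPM, among 16744 genes. For Srxn1 they were Nr1h3, a lipid-sensing nuclear receptor, at 0.128 and Ftl1-ps1 at 0.204, against a spread of Srxn1 itself of 0.532 on the same scale. The nearest gene to Nqo1 was Pir, at 0.131, with 12.3 ± 1.06, 10.5 ± 2.59 and 9.31 ± 2.78 CPM in the 3 groups. Nfe2l2 was nearest to Rundc1 (0.081), Bach1 to Baz2a (0.055), Keap1 to Tm9sf1 (0.066) and Blvrb to Coq5 (0.083). The nearest genes to Hmox1 and Maff, Impdh1 (0.208) and Csrp2 (0.285), were less close. With so many genes and 10 ovaries some likeness is always found, and the measure is a description only.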

How the data were processed

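RNA from 10 mouse ovaries was grouped by the sample labels. Unnormalized read counts for each gene were deposited, and the authors added FPKM computed from these counts and a fixed gene length. The submitters' processing notes name TopHat, Cufflinks 2.1.1 and GRCm38.p4, and the counting tool and strandedness are not given in the sources used here. In R 4.3, edgeR 4.0 removed genes with low counts (filterByExpr), scaled the libraries by TMM and fitted its quasi-likelihood model to all 10 ovaries, with 1 mean for each group. The fit was tested on simulated data, with genes called at the adjusted p and the fold limit. The simulated counts had the same spread in all 3 groups, which the ovaries did not, so the rates are a rough guide. With the Aged and Control groups it recovered 38.5% of the simulated 2-fold changes and 78.6% of the 4-fold ones, and called 8 unchanged genes. For Aged+CF vs Aged the shares were 25.3% and 76.3%, with 5 unchanged genes called. Most simulated 2-fold changes were thus missed, so a gene that did not pass is not shown to be unchanged. To pass, a gene needed a 1.5-fold change and a p below 0.05, given unadjusted and with Benjamini-Hochberg adjustment over 18956 genes. In the main fit, each p-value sets a difference between groups against the spread among replicate ovaries, estimated for each gene over all 3 groups together. That spread was largest in Aged, and the fit made no allowance for this, so its p-values are approximate. Alternatives were no filter, DESeq2 1.42, its size factors (RLE), only the compared groups, the replicate number as a block, library totals without TMM (chosen after seeing the data) and leaving out each ovary.

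The 8 genes and all lists were chosen with earlier results of these data known. Named from the lists were genes that passed in Aged vs Control or Aged+CF vs Aged (up to 8 per list) and 9 others of known role, Hmox2, Blvra, Gclc, Gclm, Txnrd1, Slc7a11, Mafg, Mafk and Cul3. For each member the 2 most similar genes with a mean of at least 1 CPM were found (prior count 2), and the nearer of them is named, or both for Srxn1. Adipocyte markers (17.0 to 120 CPM over the ovaries) showed no gene past the limits, and oviduct markers reached 368 CPM in Control 33 and 303 CPM in Aged 34 against 1.90 to 31.7 CPM elsewhere. Positions were taken from GENCODE on GRCm38, in which 55141 of 55487 identifiers were found. No pair of libraries was a duplicate.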

Additional observations from a re-analysis of the deposited data

How the results depend on the processing

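Srxn1 passed in Aged vs Control at the adjusted p under the alternatives tried, with log2 fold changes of 0.92 to 1.32, except with the replicate block, where 0 members passed (log2 fold change 1.17, adjusted p = 0.0616, edgeR). Same-numbered ovaries came from different animals and did not deviate together (correlations 0.14, -0.18 and 0.07 with age, -0.06 for Aged+CF vs Aged, -0.09 and 0.15 for Aged+CF vs Control), so the numbers were not taken as pairs. Over all genes, 2096 passed at the adjusted p in Aged vs Control and 80 with the block. For Aged+CF vs Aged 1 gene passed, against 445 with DESeq2 and 556 without Aged 34, and for Aged+CF vs Control 34, against 509 with DESeq2, 487 with only the compared groups, 9 with the block and 7 to 348 without single ovaries. The spread between ovaries was largest in Aged (0.378, against 0.209 in Control and 0.193 in Aged+CF). The causes of these shifts in number were not tested.

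Between Aged+CF and Control, 1 member passed at the unadjusted p in place of 2 with RLE size factors, DESeq2 or only the compared groups, as Hmox1 then missed the fold limit, and 0 to 2 without single ovaries. For Aged+CF vs Aged it was 0 to 1 without single ovaries. Under the replicate block the count for the NRF2 control list was 1 for Aged+CF vs Aged and 1 for Aged+CF vs Control, that of the target list 5 and 4, and that of the heme list 3 with age and 1 for Aged+CF vs Control. In Aged+CF vs Aged the block left Bach2 without Gsk3b and Nfe2, Fth1 without Osgin1 and Prdx1, and Uros in place of Hp. The heme list also had 3 in Aged vs Control with no filter or DESeq2, 2 with RLE, only the compared groups or library totals, 2 in Aged+CF vs Aged with only the compared groups, and 1 in Aged+CF vs Control with no filter or DESeq2. Without single ovaries the counts were 0 to 5, 1 to 4 and 0 to 1 for the heme list, 3 to 3, 2 to 3 and 0 to 1 for the control list, and 4 to 7, 2 to 9 and 1 to 2 for the target list, for the 3 comparisons in the order of the report.

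Changes of sign were seen for log2 fold changes near 0 and for some larger ones. The larger were those of Maff with age (-0.26) and of Maff (-0.30) and Nqo1 (-0.15) in Aged+CF vs Aged. Nfe2l2 in Aged+CF vs Control was -0.066 with the replicate block, -0.018 with library totals and -0.061 to 0.134 without single ovaries. Keap1 was 0.086 in Aged+CF vs Aged with library totals. Without single ovaries Keap1 ranged from -0.175 to 0.056 with age, from -0.130 to 0.121 for Aged+CF vs Aged and from -0.176 to 0.042 for Aged+CF vs Control. Nqo1 ranged from -0.280 to 0.217 with age and from -0.417 to 0.086 for Aged+CF vs Aged, Maff from -0.644 to 0.129 and from -0.676 to 0.107, and Bach1 from -0.070 to 0.097 with age. Library totals moved the median of all genes in Aged vs Control to -0.13. Maff and Nqo1 had the fewest counts of the members, 48 to 168 and 71 to 162 per ovary, and the part of depth in their spread was not tested.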
